A study of Rattus norvegicus with 24 samples.

Results

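The comparison described here set testis cell cultures taken 12 h after LH and FSH against cultures of the same litters taken 2 h after the hormones. It used 6 of the series' 24 libraries, 3 per time, chosen by their labels alone: induction experiment, litter 1, 2 or 3, and 2 h or 12 h. The cells came from testes of Sprague Dawley rat pups at postnatal day 5, wild type by the labels, and were grown as the complete mixture of testis cells in a gel of 4.5 mg/mL matrigel at 5000000 cells/mL. The medium held no serum, and 50% of it was replaced every 24 h. Cultures were kept for 10 days, and LH at 50 mIU/mL was then given together with FSH at 20 mIU/mL in fresh medium. Both groups shared all of this and differed in the hours that had passed, 2 h or 12 h. Each library pooled 3 replicate cultures of 1 litter, so the replicate is the litter and n is 3 throughout. Libraries of 0 h and 48 h from the same litters are quoted for orientation. No untreated cultures of 2 h or 12 h were compared here, so hormone, fresh medium and elapsed time cannot be told apart in any difference below, and in such bulk libraries neither can fewer cells of a type and less RNA per cell.

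LH acts on Leydig cells and FSH on Sertoli cells, both through receptors that raise cAMP and activate protein kinase A. Immediate early genes, which encode transcription factors such as Fos, Egr1 and Nr4a1, are switched on within minutes of such signals without new protein synthesis, and their short-lived mRNAs then decline. In Leydig cells, cAMP also raises StAR, the protein that brings cholesterol to the inner mitochondrial membrane, and over a longer time the P450 enzymes that turn cholesterol into androgen, while SREBP2 drives cholesterol synthesis when sterols in the cell run low.

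Values are CPM, which scale a gene's reads by the size of its library. The 6 libraries held about 15800000 to 28300000 reads, so that 1 read was worth 0.0353 to 0.0633 CPM, and a level built on 3 reads was 0.106 to 0.190 CPM. Of 21425 genes in the table, 12165 had at least 1 CPM in at least 3 of the 6 libraries and were tested with limma on log2(CPM + 1), with litter as a block. Differences below are 12 h minus 2 h on that log2 scale, with the standard error of the fit, and they understate the change of genes near 1 CPM. Here a gene is detected when it is above 0 CPM in at least 1 of the 6 libraries. In that sense all 21 Sertoli cell, 13 peritubular myoid and 13 interstitial fibroblast markers in the table were detected, and 11 of 12 Leydig cell markers. The filter for testing was passed by 15 of the Sertoli cell markers, 10 of the Leydig cell markers and all myoid and fibroblast markers. Hsd3b1, a Leydig cell marker, is not in the table under that symbol. It was matched by a RefSeq synonym to Hsd3b2, which had at most 1 read in a library, given only as listed. Insl3 was listed at 0 in all 6 libraries, as was Cyb5a, a gene of general use, so the 0 is given only as listed. On the first principal component (39.5% of the variance) the times overlapped, with 2 h at -4.93, -23.0 and 9.60 and 12 h at 5.05, -10.4 and 23.7 in litters 1, 2 and 3, and the 12 h library stood above the 2 h library of its litter in each of the 3 pairs.

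Between 2 h and 12 h, 5 genes rose and none fell at an adjusted p under 0.05 (limma with Benjamini-Hochberg adjustment, 12165 genes). The risen genes encode Lama2, a laminin chain of basement membranes, Tgm2, a transglutaminase that crosslinks proteins of the matrix, Crispld2, a secreted cysteine-rich protein, Adgrb1, an adhesion receptor that binds phosphatidylserine on dying cells, and Sectm1a, a secreted and transmembrane protein of immune signalling. They are 0.0411% of the genes tested. At an unadjusted p under 0.05, 1032 genes were higher (8.48%) and 1399 lower (11.5%). On the read counts recovered from the CPM, edgeR called 12 genes higher (0.0986%) and 0 lower, and DESeq2 called 223 higher (1.83%) and 73 lower (0.6%). The 6-library fit estimated the spread with 6.748 degrees of freedom, the part shared between genes included.

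Lama2 stood at 103, 131 and 184 CPM at 2 h and 203, 219 and 321 CPM at 12 h, in litters 1, 2 and 3 in that order, which is the order of every triplet below. All 3 levels at 12 h were above all 3 at 2 h, by 0.83 ± 0.07 (limma adjusted p = 0.0399). Tgm2 stood at 91.2, 84.4 and 75.8 CPM at 2 h and 149, 160.2 and 120.0 CPM at 12 h, again without overlap (0.76 ± 0.07, limma adjusted p = 0.0490). Crispld2 stood at 43.1, 31.3 and 57.3 CPM at 2 h and 77.7, 72.8 and 106 CPM at 12 h, also without overlap (0.97 ± 0.09, limma adjusted p = 0.0490). These 3 genes rose by a similar amount in each litter, and they were higher again at 48 h, where their means ± SD (n = 3) were 480.3 ± 179, 322 ± 96.5 and 143 ± 33.8 CPM. At 0 h their means had been 163 ± 33.3, 98.8 ± 2.55 and 48.0 ± 13.0 CPM.

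Adgrb1 stood at 57.1, 111 and 58.0 CPM at 2 h and 121.7, 196 and 109.8 CPM at 12 h. The groups overlapped because litter 2 was high at both times, but every litter rose (0.93 ± 0.07, limma adjusted p = 0.0399). In the RefSeq annotation (GRCr8) Adgrb1 overlaps Tsnare1, and the libraries carry no strand, so reads of the pair cannot be separated. Sectm1a was a low gene at 1.24, 4.97 and 2.52 CPM at 2 h and 6.44, 16.6 and 7.45 CPM at 12 h, where 12 h exceeded 2 h without overlap (1.52 ± 0.14, limma adjusted p = 0.0490). Its mean reached 57.9 ± 38.4 CPM at 48 h. Without litter 1 none of the 5 passed (limma adjusted p 0.423 to 0.428), whereas all 5 passed without litter 2 or without litter 3. The fit called 445 genes without litter 2 and 702 without litter 3, so passing there was not particular to these 5.

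**Figure D1:**
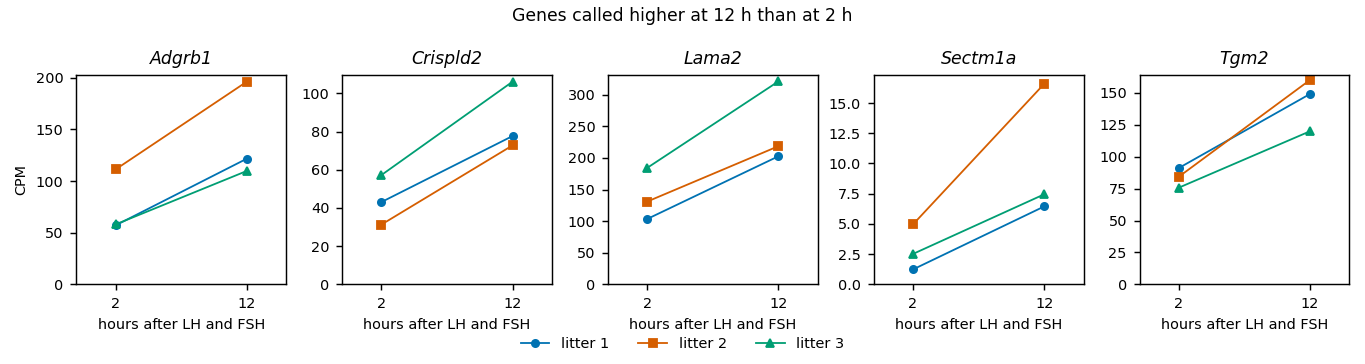
Levels (CPM) of the 5 genes that rose between 2 h and 12 h, at 2 h and 12 h after LH and FSH, with 1 line per litter and axes that start at 0. Every line rises from 2 h to 12 h, and litter 2 is the highest at both times for Adgrb1 and Sectm1a.

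The spread of each gene can be estimated with more degrees of freedom when all 12 induction libraries (0, 2, 12 and 48 h) enter 1 limma fit with litter as a block. That fit called 148 genes higher at 12 h than at 2 h (1.22%) and 226 lower (1.86%), and each of the 374 moved in the same direction in all 3 litters. With scaling by TMM the split was 171 higher and 108 lower, so the share of falls among the calls depends on how the libraries are scaled. Among the calls were 3 of the 5 genes above (Adgrb1, Crispld2 and Tgm2), while Lama2 and Sectm1a missed the threshold (limma adjusted p = 0.114 and 0.0901). DESeq2 on the 6 libraries called 146 of the 374. The calls leaned on every library. Leaving out 1 of the 6 libraries of 2 h and 12 h left 0 higher and 0 lower without 2 h of litter 1, 61 and 101 without 2 h of litter 2, and 80 and 19 without 2 h of litter 3. It left 27 and 31 without 12 h of litter 1, 0 and 0 without 12 h of litter 2, and 2 and 3 without 12 h of litter 3. Of the genes named below as called, each kept its call in at most 4 of these 6 leave-outs, and most in 0 or 1. Coq10b and Kiaa1755 kept it in 4, and Nr4a1, Klf10, Idi1 and Itgbl1 in 3. Nr4a3, Tnfaip6, Klf5 and Nr2f2, among others, kept it in 0, and Hmgcs1, Insig1 and Fos, among others, in 1. Some genes are therefore described by their level in every library first, while many are given by their difference and adjusted p alone. The word "called" below refers to the 12-library fit unless the 6-library fit is named. Both fits give the same difference for a gene. The standard errors printed for 12 h minus 2 h are those of the 6-library fit, also where the adjusted p beside them is that of 12 libraries. Those for 2 h against 0 h are of the 12-library fit.

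Immediate early genes stood lower at 12 h than at 2 h. Of 30 immediate early genes listed, 26 were tested, and 23 of them were lower at 12 h than at 2 h in all 3 litters, where 27.5% of all genes tested were. In 15 of the 26 every 12 h library lay below every 2 h library, and in 0 above, where 10.5% and 6.02% of all genes tested were. The median difference of the list was -0.67, beside -0.03 over all genes tested, and no member was above 0 (range -2.46 to -0.06). The 6-library limma fit called none of the 26 in either direction, although 21 were lower at an unadjusted p under 0.05, beside 11.5% of all genes. The 12-library fit called 7 lower, beside 1.86% of all genes: Fos, Fosb, Jund, Egr1, Nr4a1, Nr4a3 and Klf10. DESeq2 called 5 lower, beside 0.6% of all genes. Fosb, Fos and Nr4a3 were not called by DESeq2 (DESeq2 adjusted p = 0.156, 0.326 and 0.260).

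Fosb, a partner of Jun proteins in the AP-1 transcription factor, stood at 16.5, 21.3 and 111 CPM at 2 h and 4.74, 8.74 and 3.72 CPM at 12 h. The 2 h level of litter 3 was several times that of the other litters, and all 12 h levels lay below all 2 h levels (-2.46 ± 0.59, limma adjusted p = 0.122 in 6 libraries and 0.0412 in 12). Fos itself stood at 14.2, 22.1 and 36.2 CPM at 2 h and 7.96, 13.6 and 4.97 CPM at 12 h, with litter 3 again the highest at 2 h and the lowest at 12 h (-1.36 ± 0.36, limma adjusted p = 0.139 and 0.0417). Nr4a1 encodes an orphan nuclear receptor that LH and cAMP induce in Leydig cells and that binds promoters of steroid-synthesis genes. Its levels were 49.8, 62.5 and 86.4 CPM at 2 h and 17.7, 27.7 and 13.2 CPM at 12 h, lower in all 3 litters without overlap (-1.74 ± 0.26, limma adjusted p = 0.0826 and 0.0202). Nr4a3, of the same family, stood at 7.92, 12.7 and 27.4 CPM at 2 h and 4.37, 5.57 and 2.31 CPM at 12 h (-1.63 ± 0.42, limma adjusted p = 0.133 and 0.0486). Klf10, a zinc finger factor first known as a TGF-beta early gene, varied little across litters, at 54.8, 68.9 and 73.2 CPM at 2 h and 39.5, 40.2 and 40.7 CPM at 12 h (-0.69 ± 0.09, limma adjusted p = 0.0826 and 0.0250).

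Egr1 and Jund, the other members called lower, differed by -0.41 ± 0.09 (limma adjusted p in 12 libraries = 0.0414) and -0.48 ± 0.11 (0.0376). Nr4a2, Jun and Egr3 were not called, with -0.65 ± 0.18 (limma adjusted p in 12 libraries = 0.0505), -0.46 ± 0.15 (0.0872) and -1.03 ± 0.24 (0.0636). Between 0 h and 2 h the 12-library fit called 41 genes higher (0.337%) and 36 lower (0.296%). Klf10 was among the higher (0.68 ± 0.11, limma adjusted p = 0.0395), and Nr4a1 missed the threshold (1.12 ± 0.23, 0.0532). That comparison and 12 h against 2 h share the 2 h libraries, so a high 2 h library enters both and the values are only set side by side. Nr4a1 averaged 31.0 ± 14.0 CPM at 0 h and 19.5 ± 7.39 CPM at 12 h, and Klf10 40.7 ± 7.37 and 40.1 ± 0.594 CPM (mean ± SD, n = 3).

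The size of the difference varied between litters. Over the 26 genes the median difference was -0.39, -0.31 and -1.26, largest in litter 3, and with 1 library per litter and time the difference between litters could not be tested.

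The promoter of Nr4a1 is shown because its gene had the smallest adjusted p of the called early genes in the 12-library fit. The sequence is the 250 bases before the gene's start in RefSeq (GRCr8, chr7:134259888-134260137, plus strand), with the core of the cAMP response element in capitals. The core is TGACG, which reads CGTCA on the opposite strand, and both overlap in the full element TGACGTCA.
Nr4a1: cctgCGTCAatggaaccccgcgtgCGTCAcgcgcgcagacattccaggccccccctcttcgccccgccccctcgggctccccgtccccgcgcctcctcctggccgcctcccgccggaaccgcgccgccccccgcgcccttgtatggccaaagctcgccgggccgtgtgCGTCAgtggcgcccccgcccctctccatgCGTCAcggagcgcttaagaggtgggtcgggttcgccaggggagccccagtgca
This window held 4 copies of the core, all on the opposite strand, with first bases at -246, -226, -82 and -53 from the start. Of the 26 early genes in the expression table, 16 had such a window, and 10 of the 16 held the core on either strand (62.5%), beside 6097 of 33469 windows of the same length (18.2%). A listed gene counted when any of its windows matched, while the share over all is per window, so these shares differ in unit. The full element was in 3 of the 16 and in 1.59% of all windows. A match of letters is a description and does not show that a factor bound there.

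**Figure D2:**
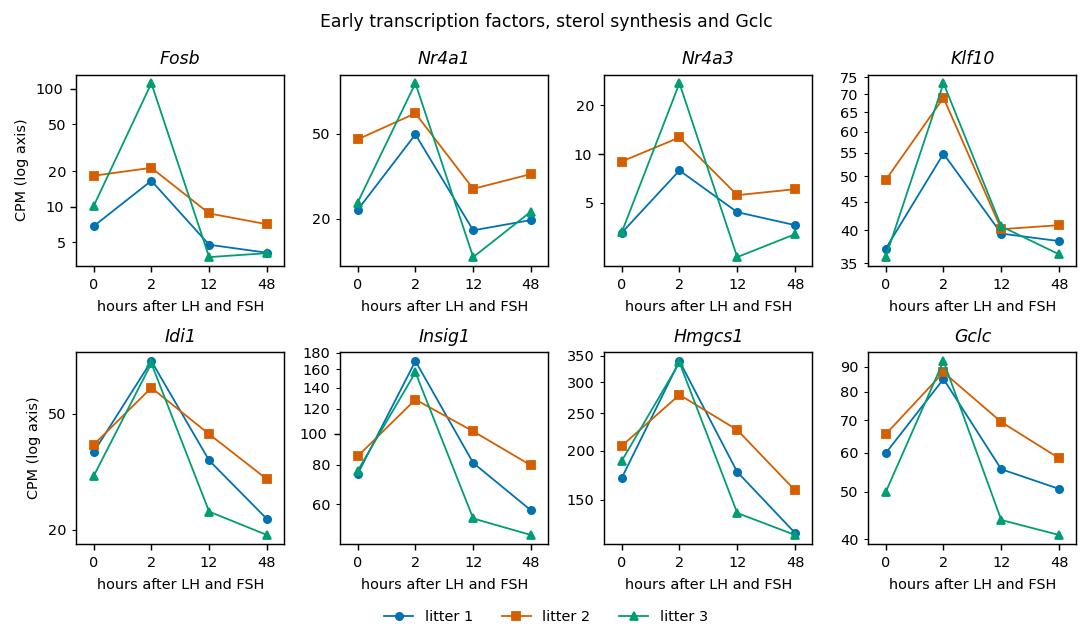
Levels (CPM, log axis) of 4 early transcription factor genes (Fosb, Nr4a1, Nr4a3, Klf10), 3 sterol genes (Idi1, Insig1, Hmgcs1) and Gclc against hours after LH and FSH, with 1 line per litter. In every panel each litter is highest at 2 h and lower at 12 h, and the 2 h level of Fosb in litter 3 stands far above the others.

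The lists of cAMP targets and of genes that damp kinase signalling had medians nearer to that of all genes. Of 23 cAMP and CREB targets tested, 7 lay lower at 12 h without overlap and 1 higher, beside 10.5% and 6.02% of all genes tested. Nr4a1 and Nr4a3, both also members of the early list, were those called lower, beside 1.86% of all genes, and the list's median was -0.14. Crem, which encodes activators and the repressor ICER of cAMP transcription, differed by -0.50 ± 0.17 (limma adjusted p in 6 libraries = 0.193), and Sik1, a kinase that shuts off CREB coactivators, by -0.53 ± 0.11 (0.107). Among 18 ERK feedback genes, which encode phosphatases and Sprouty proteins, 6 lay lower at 12 h without overlap and 0 higher, again beside 10.5% and 6.02% of all genes, with a median of -0.14. The 12-library fit called Dusp8 lower (-0.61 ± 0.11, limma adjusted p = 0.0316), and Dusp14 differed by -0.80 ± 0.14 (0.0522).

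Genes along most of the cholesterol synthesis pathway stood lower at 12 h, SREBP targets among them. Of 24 genes tested, 20 were lower in all 3 litters, beside 27.5% of all genes tested. In 15 every 12 h level lay below every 2 h level, beside 10.5% of all genes tested. The median difference was -0.50 (range -1.09 to 0.15), beside -0.03 over all genes tested. The 6-library limma fit called 0 of the 24 in either direction, with 20 lower at an unadjusted p under 0.05, beside 11.5% of all genes. The 12-library fit called 12 lower, which is 50% of the list beside 1.86% of all genes tested. DESeq2 called 5 lower, beside 0.6% of all genes.

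At the head of the pathway, Hmgcs1, which makes HMG-CoA, stood at 339.6, 278 and 337 CPM at 2 h and 177, 226 and 139 CPM at 12 h, lower at 12 h without overlap (-0.84 ± 0.17, limma adjusted p = 0.106 in 6 libraries and 0.0268 in 12). Idi1, the isomerase of the isoprenoid units, stood at 75.6, 61.3 and 74.3 CPM at 2 h and 34.5, 42.5 and 23.1 CPM at 12 h, lower at 12 h in every litter (-1.09 ± 0.19, limma adjusted p = 0.103 and 0.0250). Idi1 overlaps Wdr37 in the GRCr8 annotation, so its reads may be shared.

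Fdps (-0.55), Fdft1 (-0.58), Sqle (-0.72) and Cyp51 (-0.66), which carry the chain to squalene and on to the first sterols, were all called lower in 12 libraries (limma adjusted p 0.0425, 0.0278, 0.0268 and 0.0465). So were Acat2 (-0.49, 0.0394), which joins acetyl-CoA units, and Mvd (-0.47, 0.0376), the mevalonate decarboxylase. Msmo1, the sterol C4-methyl oxidase, stood at 124, 99.6 and 117 CPM at 2 h and 62.9, 78.8 and 49.2 CPM at 12 h (-0.84 ± 0.16, limma adjusted p = 0.103 and 0.0300). Every 12 h level of Msmo1 was below every 2 h level, and litter 2 moved least.

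A regulator of sterol supply was called lower in 12 libraries as well. Insig1, which holds SREBP in the endoplasmic reticulum and is itself an SREBP target, stood at 169.6, 128 and 156 CPM at 2 h and 81.0, 102 and 54.1 CPM at 12 h (-0.97 ± 0.20, limma adjusted p = 0.106 and 0.0300). It was lower at 12 h without overlap between the times. The members Insig2, Mvk and Pmvk were not lower: Insig2 differed by 0.15 ± 0.14, Mvk by 0.05 ± 0.08 and Pmvk by 0.12 ± 0.12 (limma adjusted p in 6 libraries 0.575, 0.792 and 0.623). Tm7sf2 differed by -0.25 ± 0.22 (0.569), in mixed directions across litters.

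Against 0 h, Idi1 was called higher at 2 h than at 0 h (0.97 ± 0.16, limma adjusted p = 0.0401), as was Hmgcs1 (0.75 ± 0.14, 0.0482). At 48 h both were below 12 h: Idi1 averaged 33.4 ± 9.77 CPM at 12 h and 23.6 ± 5.53 CPM at 48 h, and Hmgcs1 181 ± 43.9 and 135 ± 20.8 CPM (mean ± SD, n = 3). Litter 2 differed least: the median over the 24 genes was -0.62, -0.17 and -0.74 in litters 1, 2 and 3.

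**Figure D3:**
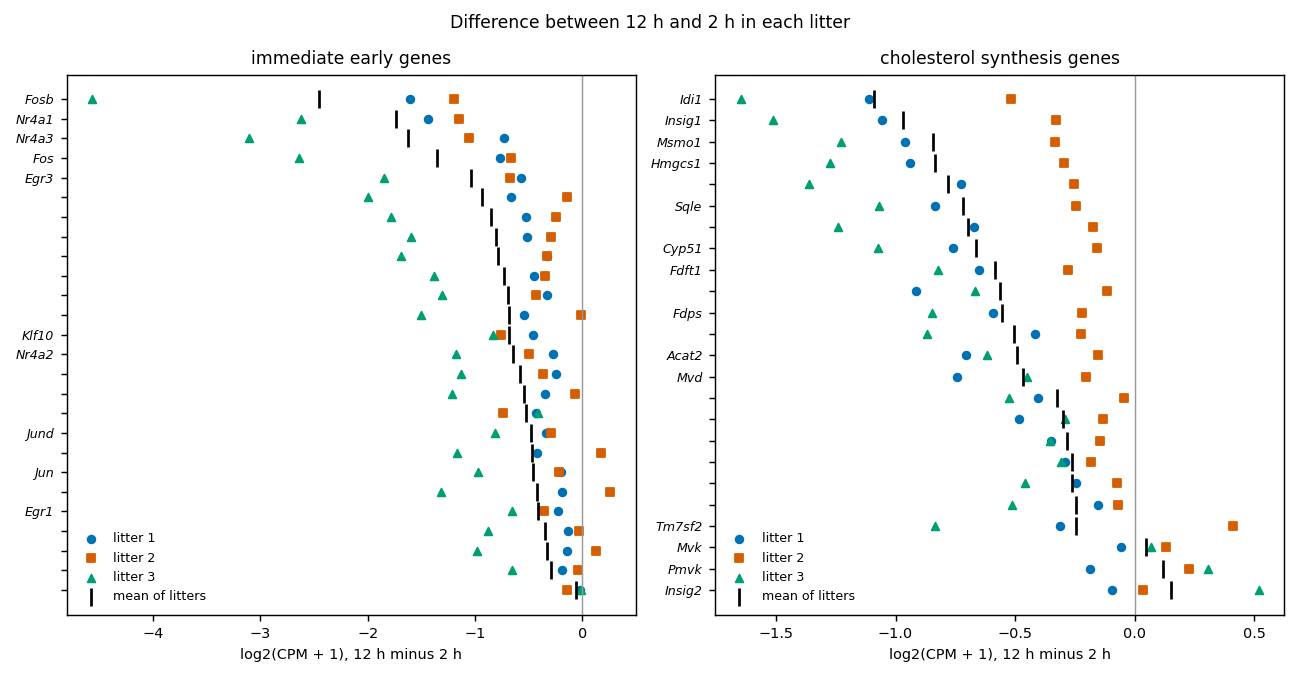
Difference in log2(CPM + 1) between 12 h and 2 h for every tested gene of the immediate early list (left) and the cholesterol synthesis list (right), of which those described in the text are labelled, with 1 point per litter, a bar at the mean of the litters and a grey line at 0. Litter 3 lies farthest below 0 for most early genes, and litter 2 lies nearest to 0 for most cholesterol genes.

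Promoters of 2 cholesterol genes with a match are shown for the same core, in capitals as above, 250 bases before the start in RefSeq (GRCr8): Insig1 at chr4:8057770-8058019 on the minus strand and Msmo1 at chr16:29746863-29747112 on the plus strand, each written 5′ to 3′ on the gene's strand.
Insig1: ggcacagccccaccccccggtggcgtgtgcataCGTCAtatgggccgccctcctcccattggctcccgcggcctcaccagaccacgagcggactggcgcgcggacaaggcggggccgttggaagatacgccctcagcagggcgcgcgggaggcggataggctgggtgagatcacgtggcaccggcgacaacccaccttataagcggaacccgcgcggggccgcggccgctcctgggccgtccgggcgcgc
Msmo1: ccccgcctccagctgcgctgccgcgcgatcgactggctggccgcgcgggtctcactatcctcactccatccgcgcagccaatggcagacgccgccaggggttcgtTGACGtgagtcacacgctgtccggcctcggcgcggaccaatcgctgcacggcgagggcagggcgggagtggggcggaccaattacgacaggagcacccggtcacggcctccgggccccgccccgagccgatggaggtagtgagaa
Insig1 held 1 core on the opposite strand with its first base at -217, and Msmo1 held 1 on the given strand at -145. Of 18 cholesterol genes with a window, 9 held the core (50%) and 0 held the full element. Over all windows the shares were 18.2% and 1.59%, again per window and not per gene.

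Steroid synthesis did not move in 1 direction. Of 18 genes of steroid synthesis and cholesterol delivery tested, the 6-library limma fit called none. At an unadjusted p under 0.05 in that fit, 4 were higher and 4 lower, beside 8.48% and 11.5% of all genes. DESeq2 called 3 higher and 2 lower, beside 1.83% and 0.6% of all genes. The 12-library fit called Star and Fdx1 lower, beside 1.86% of all genes, and Cyp17a1 higher, beside 1.22%. The list's median was -0.06.

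Star stood at 65.8, 194 and 94.8 CPM at 2 h and 34.6, 56.2 and 27.1 CPM at 12 h. Each litter was lower at 12 h, and every 12 h level was below every 2 h level (-1.48 ± 0.17, limma adjusted p = 0.0741 in 6 libraries and 0.0256 in 12). Star was the sole gene called lower in the 6-library fit without litter 1 (limma adjusted p = 0.0350), and it also passed without litter 2 (0.00161) and without litter 3 (2.03e-04). The fit called 445 genes without litter 2 and 702 without litter 3, against 5 with all 3 litters. The mean ± SD of Star was 50.9 ± 13.5 CPM at 0 h, 118 ± 67.1 at 2 h, 39.3 ± 15.1 at 12 h and 65.4 ± 6.47 at 48 h (n = 3), and the difference of 2 h from 0 h missed the threshold (1.09 ± 0.24, limma adjusted p = 0.0595). Fdx1, the ferredoxin that passes electrons to mitochondrial P450 enzymes, stood at 24.4, 39.9 and 33.0 CPM at 2 h and 20.3, 21.5 and 14.5 CPM at 12 h, lower at 12 h without overlap (-0.75 ± 0.16, limma adjusted p = 0.108 and 0.0305). It had been higher at 2 h than at 0 h (0.83 ± 0.14, limma adjusted p = 0.0401).

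Cyp17a1, the enzyme that commits steroid precursors to androgens, went the other way. It stood at 0.601, 11.6 and 1.37 CPM at 2 h and 8.79, 26.2 and 9.22 CPM at 12 h, so litter 2 was high at both times and its 2 h level exceeded the 12 h levels of litters 1 and 3. Within each litter it was higher at 12 h (1.94 ± 0.27, limma adjusted p = 0.0826 in 6 libraries and 0.0386 in 12), and its mean was 0.898 ± 1.03 CPM at 0 h and 25.4 ± 14.6 CPM at 48 h. Cyp11a1, which makes pregnenolone from cholesterol, stood at 6.96, 13.3 and 8.89 CPM at 2 h and 9.94, 27.7 and 10.8 CPM at 12 h, higher in each litter but not called (0.57 ± 0.16, limma adjusted p = 0.145 and 0.311). Scarb1, the HDL receptor that supplies cholesterol ester, stood at 46.7, 58.4 and 43.5 CPM at 2 h and 62.7, 97.0 and 62.1 CPM at 12 h, without overlap but not called (0.55 ± 0.08, limma adjusted p = 0.0826 and 0.0886). Cyp19a1, the aromatase, did not pass the filter and was at most 1.01 CPM in the 6 libraries.

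**Figure D4:**
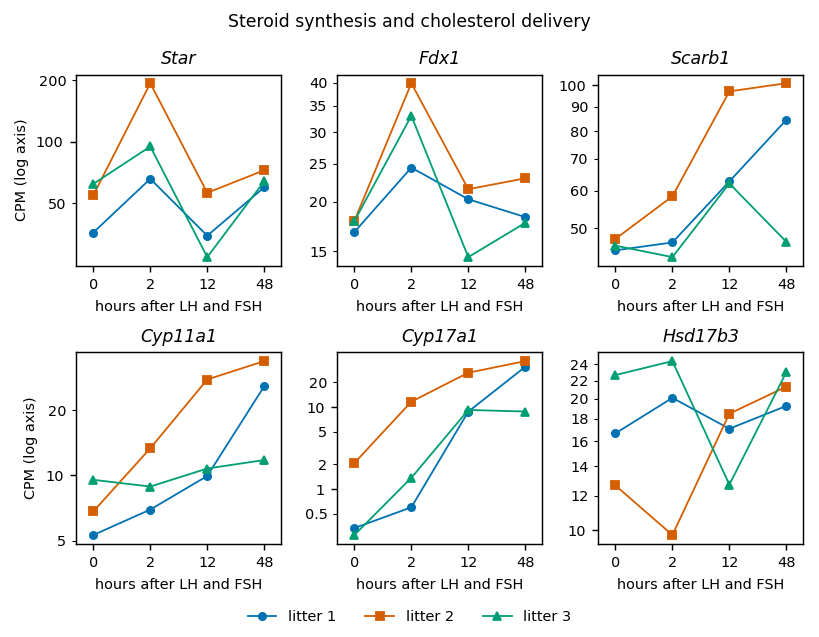
Levels (CPM, log axis) of Star, Fdx1, Scarb1, Cyp11a1, Cyp17a1 and Hsd17b3 against hours after LH and FSH, with 1 line per litter. Star and Fdx1 are lower at 12 h than at 2 h in each litter, and Cyp17a1 is higher in each litter, with litter 2 above the others at both times.

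The hormone receptors and the Sertoli cell hormones were not called in either limma fit. Lhcgr differed by 0.28 ± 0.21 (limma adjusted p in 6 libraries = 0.495), and Fshr by -0.09 ± 0.12 (0.690). Inha and Inhbb, the inhibin subunits, differed by -0.04 ± 0.08 (0.809) and 0.16 ± 0.08 (0.307), and Amh by -0.09 ± 0.09 (0.603). Hsd17b3, which makes testosterone, differed by -0.08 ± 0.29 (0.896), with reads that may be shared with Ercc6l2. The summed level of the 12 Leydig cell markers was 368, 559 and 388 CPM at 2 h and 393, 533 and 354 CPM at 12 h, so the times overlapped.

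NRF2 is a transcription factor that raises antioxidant genes under oxidative stress. Of 18 NRF2 antioxidant genes tested, 6 lay lower without overlap, beside 10.5% of all genes. The 6-library limma fit called 0 in either direction, with 0 higher and 8 lower at an unadjusted p under 0.05, and DESeq2 called 0 higher and 2 lower. Over all genes tested, 8.48% were higher and 11.5% lower at that unadjusted p, and DESeq2 called 1.83% higher and 0.6% lower. The 12-library fit called 5 lower, beside 1.86% of all genes, and 0 higher: Srxn1 (-0.84 ± 0.15, limma adjusted p = 0.0268), Gclc (-0.67 ± 0.13, 0.0256), Hmox1 (-0.54 ± 0.10, 0.0393), Gclm (-0.32 ± 0.08, 0.0376) and Txnrd1 (-0.23 ± 0.07, 0.0434). The list's median was -0.18. Gclc, the catalytic subunit that starts glutathione synthesis, stood at 85.0, 87.7 and 92.4 CPM at 2 h and 55.6, 69.4 and 43.8 CPM at 12 h. All 3 litters had nearly the same level at 2 h and parted at 12 h, with litter 2 the highest. Txnrd1 overlaps Eid3 in the annotation.

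Clock genes gave 3 calls among 17 tested, all lower, beside 1.86% of all genes. The 6-library limma fit, edgeR and DESeq2 called none of the 17. Of the 3 calls, Nfil3 was kept in 1 of the 6 leave-outs above, and Nr1d2 and Cry1 in 0. Nfil3 (-0.43 ± 0.08, limma adjusted p in 12 libraries = 0.0278), Nr1d2 (-0.35 ± 0.07, 0.0497) and Cry1 (-0.30 ± 0.07, 0.0316), all transcriptional repressors, were lower at 12 h. In 7 of the 17 the 12 h levels lay below the 2 h levels without overlap, and in Npas2 above (0.35 ± 0.14, 0.188), beside 10.5% and 6.02% of all genes. Of 23 ribosome biogenesis genes, 19 were lower in all 3 litters, beside 27.5% of all genes, with a median of -0.16. The 12-library fit called 2 lower, beside 1.86% of all genes: Gnl3 (-0.42 ± 0.09, limma adjusted p = 0.0256) and Nop58 (-0.23 ± 0.06, 0.0454). Gnl3 kept its call in 1 leave-out and Nop58 in 0. The 6-library limma fit, edgeR and DESeq2 called none of the 23.

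Further genes named by size among those called lower in 12 libraries lay outside these lists. Klhl40, a kelch protein that stabilises thin filaments in skeletal muscle, stood at 47.2, 28.8 and 92.8 CPM at 2 h and 13.1, 16.2 and 5.85 CPM at 12 h (-2.11 ± 0.48, limma adjusted p = 0.116 and 0.0343). As for Fosb, litter 3 was highest at 2 h and lowest at 12 h. DESeq2 did not call Klhl40 (DESeq2 adjusted p = 0.160). Tnfaip6, a hyaluronan-binding protein known from the ovulating follicle, differed by -1.08 ± 0.25 (limma adjusted p in 12 libraries = 0.0468), Pvr, a nectin-like adhesion protein, by -1.004 ± 0.22 (0.0343), Coq10b, a coenzyme Q binding protein, by -0.94 ± 0.14 (0.0202), Foxc2, a forkhead factor, by -0.92 ± 0.12 (0.0414), Klf5, a zinc finger factor, by -0.88 ± 0.22 (0.0472) and Gfod1 by -0.93 ± 0.26 (0.0472).

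Matrix genes leaned the other way. Of 30 extracellular matrix genes tested, 18 were higher in all 3 litters, where 17.3% of all genes tested were, and 0 were lower in all 3. The median was 0.20. The 6-library fit called Lama2 alone, the 12-library fit Col6a3 alone, and DESeq2 8 members, all higher. Over all genes tested the shares called higher were 0.0411%, 1.22% and 1.83%, in that order. Col6a3, a chain of collagen VI, stood at 977, 730.5 and 1471 CPM at 2 h and 1608, 1400.0 and 1822 CPM at 12 h, higher in each litter with overlap between the times (0.65 ± 0.12, limma adjusted p = 0.103 and 0.0394). Fbn1, fibrillin, differed by 0.47 ± 0.12 (limma adjusted p in 12 libraries = 0.0664), and Col1a1 by 0.41 ± 0.13 (0.0994). Fn1, Tnc and Postn differed by 0.11 ± 0.28, -0.11 ± 0.20 and -0.17 ± 0.30 (0.808, 0.825 and 0.747).

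Fibroblast markers stood beside them. All 13 were tested and detected, 8 were higher in all 3 litters, beside 17.3% of all genes. The 6-library limma fit called 0 in either direction, with 8 higher and 0 lower at an unadjusted p under 0.05, and DESeq2 called 6 higher and 0 lower. For all genes these shares were 8.48% and 11.5% at the unadjusted p, and 1.83% and 0.6% by DESeq2. The 12-library fit called 2 higher, beside 1.22% of all genes, among them Nr2f2, a transcription factor of interstitial progenitors (0.44 ± 0.09, limma adjusted p = 0.0472). Pdgfra, the PDGF receptor of the interstitium, stood at 144, 262 and 199.9 CPM at 2 h and 277, 332 and 492 CPM at 12 h, higher in each litter but not called (0.86 ± 0.16, 0.115). The summed level of the 13 markers, 4 of which (Dcn, Col1a1, Col1a2, Col3a1) are also matrix genes, was 33354, 25750.0 and 41598 CPM at 2 h and 39240.0, 29093 and 63254 CPM at 12 h, higher in each litter. Its part in the rise of single matrix genes was not tested.

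Macrophage markers also stood higher at 12 h, with large differences between litters. Of 12 tested, 8 were higher in all 3 litters, beside 17.3% of all genes. The median difference was 0.60, at 0.08, 0.60 and 1.19 in litters 1, 2 and 3. Neither limma fit called any (0 of 12). At an unadjusted p under 0.05 in the 6-library fit, 7 were higher, beside 8.48% of all genes. DESeq2 called 2 higher, beside 1.83% of all genes. The summed level of the 13 markers in the table was 193, 36.6 and 108 CPM at 2 h and 201, 67.6 and 261 CPM at 12 h, with Cd163 listed at 0. Lyz2 differed by 0.81 ± 0.21, Csf1r by 0.82 ± 0.27 and Adgre1 by 0.83 ± 0.22 (limma adjusted p in 12 libraries 0.145, 0.276 and 0.211). For Sectm1a, a gene of immune signalling, the part of these markers was not tested.

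The genes called higher in 12 libraries are named by the size of the difference, not by function. They included Dhrs3, a retinaldehyde reductase (0.93 ± 0.16, limma adjusted p = 0.0305), Adcyap1r1, the PACAP receptor, which raises cAMP (0.82 ± 0.15, 0.0376), and Entpd1, which breaks down extracellular ATP (0.75 ± 0.08, 0.0394). Myocd, the coactivator of smooth muscle genes, stood at 21.5, 21.2 and 41.1 CPM at 2 h and 38.5, 31.5 and 73.4 CPM at 12 h (0.73 ± 0.09, 0.0256). Meox1, a homeobox factor, differed by 0.71 ± 0.15 (0.0434), and Arhgef28, a guanine nucleotide exchange factor, by 0.77 ± 0.10 (0.0282). Kiaa1755, Fam13c, Apc2 and Itgbl1 differed by 1.05 ± 0.15, 0.86 ± 0.16, 0.74 ± 0.12 and 0.72 ± 0.10 (0.0202, 0.0445, 0.0300 and 0.0202), where Fam13c, Apc2, Itgbl1 and Dhrs3 overlap other annotated genes.

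The 13 peritubular myoid markers gave no call in either limma fit, and their median was 0.04. At an unadjusted p under 0.05 in the 6-library fit, 4 were higher and 0 lower, beside 8.48% and 11.5% of all genes. DESeq2 called 4 higher, beside 1.83% of all genes. The summed level of the 13 markers was 6206, 5857 and 7215 CPM at 2 h and 6535, 6787 and 6919 CPM at 12 h. Germ cell markers were lower in all 3 litters in 10 of 19 tested, beside 27.5% of all genes, with a median of -0.22. Their 1 call in 12 libraries was Id4, an inhibitor of helix-loop-helix factors that marks spermatogonial stem cells (-0.63 ± 0.15, limma adjusted p = 0.0473). Id4 kept that call in 0 of the 6 leave-outs, and the 6-library limma fit, edgeR and DESeq2 called none of the 19. The summed level of the germ cell markers was 204, 186 and 202 CPM at 2 h and 176, 147 and 178 CPM at 12 h, lower in each litter. Mitochondrially encoded mRNAs, which can follow RNA quality, had a median of -0.38 over 12 tested and a summed level of 7609.7, 6896 and 4429 CPM at 2 h and 6605, 4282 and 3715 CPM at 12 h, lower in each litter; the part of RNA quality in the lower levels above was not tested. No member was called by limma, with 8 of 12 lower at an unadjusted p under 0.05, beside 11.5% of all genes. DESeq2 called 5 lower, beside 0.6% of all genes.

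**Figure D5:**
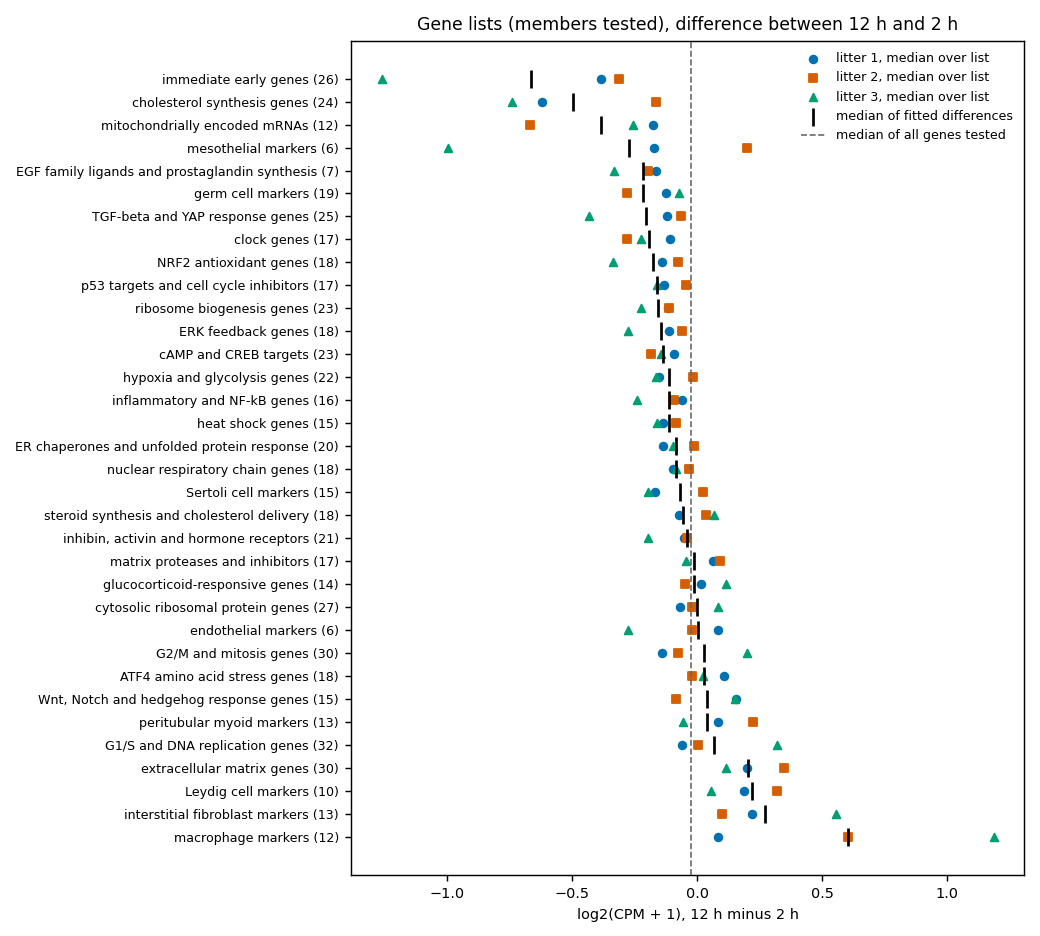
Median difference in log2(CPM + 1) between 12 h and 2 h over the tested genes of each list with at least 3 genes tested (the erythroid markers, with 1 tested, are left out), with the number tested in brackets, 1 point per litter and a bar for the median of the fitted differences. The dashed line marks the median of all genes tested; the immediate early and cholesterol synthesis lists lie lowest, and the macrophage, fibroblast, Leydig and matrix lists highest.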

How the data were processed

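RNA was purified by poly-T beads and made into non-directional libraries, per the labels' protocols. STAR and the rat assembly mRatBN7.2 are named in the submitters' processing notes; versions, counting tool and annotation are not given in the sources used here. The deposited values are CPM per gene, scaled by the authors to each library's reads, of which 4.36% to 4.71% fell outside the listed genes. Whole reads were recovered for 100% of the values (tolerance 0.01 reads).

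Genes with at least 1 CPM in at least 3 of the 6 libraries (12165) were tested with limma 3.58.1 (R 4.3.3) with a trended spread on log2(CPM + 1), two-sided, with litter as a block and Benjamini-Hochberg adjustment over all of them, called at an adjusted p under 0.05. The recovered reads were tested with edgeR 4.0.16 (quasi-likelihood) and DESeq2 1.42.0. By that count test, edgeR called 12 genes and DESeq2 296. The litter numbers in the labels pair the libraries: deviations from the group means correlated within litters at 0.559, 0.525 and 0.352, and between litters at -0.371 to -0.0439 (across genes). At each time the deviations of the litters sum to 0, so positive values within litters force negative values between them. On simulated reads with this layout (12165 genes, 100 changed 2-fold and 100 changed 4-fold), limma recovered 99% and 100%, with 9 false calls among 208. The simulated litter effects were the same at both times, and every gene had the same spread. These shares therefore cannot tell how many real changes the fit finds.

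The members and gene lists were chosen with earlier results of these data known. A RefSeq synonym matched 4 of the lists' symbols to the table. Of the lists' symbols, 39 had no match in the table, among them Junb, Ier2, Dusp1, Klf2 and Fosl2, which are not analysed here. Named genes were the 15 with the largest rise and the 15 with the largest fall among called genes moving alike in all 3 litters with at least 5 CPM in the higher group, up to 4 called members per list and direction, and a panel fixed by name. Applying this to the calls of the 12-library fit, and naming members that were not called, was decided after the values were seen. Alternatives were no replicate block, all 12 induction libraries, pseudocount 0.1 CPM, no filter, a mean of at least 5 CPM, TMM scaling, edgeR, DESeq2, and leaving out each litter or library. Some genes that the rule named are not reported here. In the fits with litter as a block, p-values rest on the spread left once litter is taken out, that is on how unevenly the litters changed over time. In the 12-library fit that spread also takes in the libraries of 0 h and 48 h.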

Additional observations from a re-analysis of the deposited data

How the results depend on the processing

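In the 6-library comparison the calls moved with nearly every choice: against 5 genes higher and 0 lower at 12 h, there were 0 and 0 without a filter (17083 genes), 0 and 0 when genes needed a mean of 5 CPM (10393 genes), 2 and 0 with a pseudocount of 0.1 CPM, 5 and 0 with TMM scaling (4 of the 5 genes shared), 12 and 0 by edgeR, 223 and 73 by DESeq2, and 148 and 226 in all 12 induction libraries. Leaving out 1 litter gave 0 to 418 higher and 1 to 284 lower. In the 12-library comparison, whose own alternatives were chosen after seeing the data, TMM scaling gave 171 higher and 108 lower, and leaving out 1 library or 1 litter gave 0 to 80 higher and 0 to 101 lower. The cause of these shifts was not tested.

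The replicate block, with litter as the pairing, was part of both comparisons. With no replicate block, 0 genes were higher and 0 lower in 6 libraries, and 0 and 0 in 12.

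For 91 genes in the text, 745 differences under an alternative kept their direction and their side of the threshold, 26 fell short of it and 216 passed it in addition. The direction reversed in 8, none of them called: Lhcgr without litter 1, Fn1 without litter 2, and the others without litter 3. Their differences ranged over the litters left out from -0.00482 to 0.47 for Lhcgr, -0.31 to 0.55 for Fn1, -0.56 to 0.32 for Hsd17b3, -0.13 to 0.058 for Inha, -0.031 to 0.28 for Insig2, -0.57 to 0.049 for Tm7sf2, -0.67 to 0.26 for Postn and -0.44 to 0.12 for Tnc. Depth limits genes near 3 reads, or 0.106 to 0.190 CPM, which were not tested. With 1 library per litter and time, differences between litters cannot be tested.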

Other observations

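Lists not described above held few calls. Of 25 TGF-beta and YAP response genes tested, the limma fits of 6 and 12 libraries and DESeq2 called 0 in either direction. At an unadjusted p under 0.05 in 6 libraries, 1 was higher and 7 lower, beside 8.48% and 11.5% of all genes. The list's median was -0.20, with medians of -0.12, -0.07 and -0.43 in litters 1, 2 and 3. Ccn1 and Thbs1, secreted matrix-associated proteins, differed by -0.74 ± 0.27 (limma adjusted p in 12 libraries = 0.0970) and -0.63 ± 0.23 (0.102), lower in all 3 litters but not called.

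Besides Tnfaip6 of the inflammatory list, single calls in 12 libraries came from the Sertoli cell markers, with Nr5a1 higher (0.33 ± 0.06, limma adjusted p = 0.0452), the Wnt, Notch and hedgehog genes, with Notch3 higher (0.45 ± 0.07, 0.0396) and Lfng lower (-0.31 ± 0.06, 0.0300), the hypoxia and glycolysis genes, with Adm lower (-0.62 ± 0.10, 0.0486), and the nuclear respiratory chain genes, with Uqcrfs1 lower (-0.28 ± 0.07, 0.0438). Over all genes tested that fit called 1.22% higher and 1.86% lower. Nr5a1 encodes steroidogenic factor 1, which Sertoli and Leydig cells share. Cell cycle genes stood near the median of all genes, at 0.06 over 32 G1/S and replication genes and 0.03 over 30 mitotic genes. Neither limma fit called any of them, nor did DESeq2. At an unadjusted p under 0.05 in the 6-library fit, 4 and 3 were higher, beside 8.48% of all genes, and 0 and 2 lower, beside 11.5%.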
